A study of Bos taurus and Sus scrofa with 6 samples.

Results

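Endothelial cells of the prepubertal pig testis were taken from 3 single-cell libraries, 1 for each pig. A barcode was kept when its total reached the minimum of its library (696, 2444 and 3457 unique molecular identifiers, UMIs, in pigs 1, 2 and 3) and when PECAM1, CDH5, VWF, KDR, EGFL7 and TIE1 together had at least 3 UMIs over at least 2 genes. It was dropped when at least 2 genes of another cell type (germ, Sertoli, Leydig, T or NK lymphocyte, macrophage) had a UMI. The rule kept 756 of the 9457 pig barcodes called as cells, and the whole series held 27966 called barcodes. Pig 2 gave 418 endothelial cells and pig 3 gave 335. Pig 1 gave only 3, and 0, 29 and 75 barcodes of pigs 1, 2 and 3 were dropped for genes of another type.

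The pigs were of mixed breed and aged 3 months, the labels name no treatment, and testes were obtained by castration and digested to a suspension of total testicular cells. The droplet chip was loaded with some 8000 viable cells per animal, and all libraries were sequenced together on an Illumina instrument. The files held 6245189, 40099873 and 33500750 UMIs for pigs 1, 2 and 3. Testes of 3 Holstein cattle aged 4.5 months, handled in the same way, served for a short comparison, and the labels number both the second and the third library of each species as testis 2, beside different animal tags.

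Endothelial cells line blood and lymph vessels, where VE-cadherin (CDH5) and PECAM1 hold neighbouring cells together and VEGF receptors, angiopoietin receptors and Notch set how vessels grow and whether they become arteries, capillaries or veins. In the testis the vessels run in the interstitium between the seminiferous tubules, beside Leydig cells and macrophages. They carry gonadotropins in and testosterone out.

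The 6 endothelial genes of the rule are described here without a test. EGFL7, a secreted protein of the vessel wall, stood at 755 and 642 CPM (the UMIs of a gene for each 1000000 UMIs of the summed cells) in the endothelial cells of pigs 2 and 3, and at 17.0 and 16.2 CPM in the other called cells of the same libraries. VWF, the platelet-binding multimer of the vessel wall, stood at 531 and 703 CPM against 9.17 and 10.7 CPM. PECAM1 stood at 358 and 341 CPM against 3.94 and 9.51 CPM. All 6 genes lay far apart between the cell groups, as the rule made them do. CDH5 had 231 and 227 CPM in the endothelial cells. KDR, the main VEGF receptor, had 164 and 186 CPM, and TIE1, a receptor of the angiopoietin system, had 106 and 85.5 CPM. The 4 label markers PECAM1, CDH5, VWF and EGFL7 are all genes of the rule, so their presence was set by it. In cells thinned at random to 2444 UMIs, EGFL7 had a UMI in 77.8% and 76.7% of the endothelial cells of pigs 2 and 3 and in 4.48% and 4.71% of the other cells. Just inside the rule lay 2, 26 and 13 cells of pigs 1, 2 and 3 with exactly 3 UMIs, and 2, 42 and 18 cells with exactly 2 genes. Just outside lay 9, 87 and 110 barcodes with 2 UMIs and 0, 10 and 17 barcodes with 3 or more UMIs of a lone gene.

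**Figure D1:**
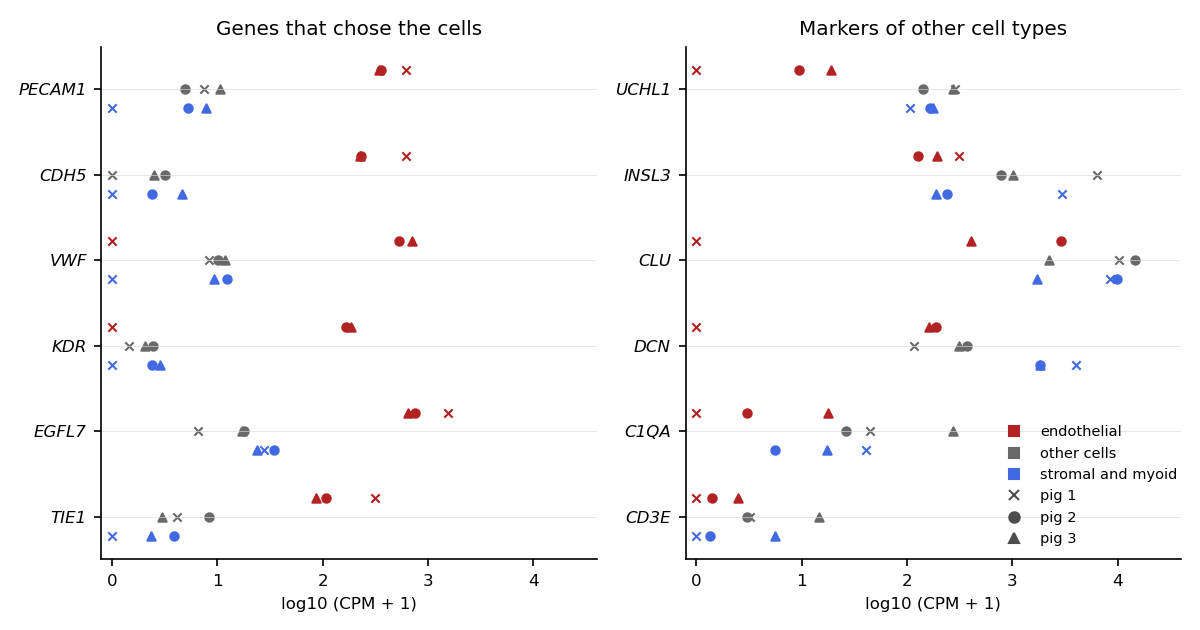
Levels of the 6 endothelial genes of the rule (left) and of a marker each of germ cells (UCHL1), Leydig cells (INSL3), Sertoli cells (CLU), stromal cells (DCN), macrophages (C1QA) and T cells (CD3E) (right), as log10 of CPM + 1 of the summed UMIs. Red stands for endothelial, grey for other and blue for stromal and myoid cells, and the marker shape for the pig. The endothelial sums of pigs 2 and 3 lie far above the others on the left, while UCHL1, INSL3 and CLU are lower in them than in the other cells of the same pig.

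Pig 1 stood apart before any test. Its 3 endothelial cells held 3215 UMIs in all, against 2484611 and 2689639 in pigs 2 and 3, so that 1 UMI there was worth 311 CPM. The first cell had 1 UMI of CDH5 and 2 of EGFL7, the second 1 of PECAM1 and 3 of EGFL7, and the third 1 each of PECAM1, CDH5 and TIE1. Counts of called genes are therefore given with and without pig 1. The median depth of an endothelial cell was 850, 4769 and 6260 UMIs in pigs 1, 2 and 3, and that of the other cells was 895, 3801 and 5716 UMIs. Mitochondrial genes took 2.13% and 1.78% of the endothelial UMIs in pigs 2 and 3 against 2.62% and 2.11% in the other cells. In pig 1 they took more in endothelial cells, 2.67% against 1.61%.

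Endothelial cells made up 0.0924% (exact 95% binomial interval 0.0191% to 0.270%) of the called cells of pig 1, 10.6% (9.68% to 11.6%) of pig 2 and 14.7% (13.3% to 16.2%) of pig 3. The mean was 8.48% ± 7.54 (SD, n = 3), with pig 1 far under the others. Since the rule asks for 3 UMIs, it keeps deeper cells more readily. When every called cell was thinned to 696 UMIs, the rule kept 0.0308%, 2.03% and 3.47% of the cells of pigs 1, 2 and 3, in the same order. Of all deposited barcodes with at least 500 UMIs it kept 0.0482%, 3.26% and 7.92%. Dropping barcodes with 1 gene of another type or 2 stromal genes, a choice made after the data were seen, left 0.0616%, 4.37% and 5.88% of the called cells. Intervals cover counting error only. Called libraries shared 20, 9 and 9 barcodes in pairs, and no shared barcode was endothelial in both.

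RNA of other testicular cells was present in the endothelial sums, and its part in the results that follow was not tested. The 11 Sertoli genes summed to 3652 and 684 CPM against 17644 and 2656 CPM in the other cells, for pigs 2 and 3, with CLU the most abundant gene and AMH and AARD at 0. The 6 Leydig genes with a symbol summed to 303 and 326 CPM against 1459 and 1435 CPM, led by INSL3. The 12 stromal genes summed to 722 and 828 CPM against 1508 and 1796 CPM, led by COL1A1 and DCN, with C7 at 0. Each of the 3 sums was lower in endothelial cells in both pigs. The Sertoli, Leydig, germ, macrophage and lymphocyte lists each hold 3 genes by which the rule dropped barcodes, AMH among them, so the rule itself lowered these sums. The 11 germ cell genes with a symbol summed to 404 and 215 CPM against 364 and 669 CPM, but most of the endothelial value was KIT, which vessels also express, and SALL4 was at 0. The 12 pericyte genes with a symbol summed to 896 and 510.5 CPM against 1144 and 518 CPM, led by ACTA2. The 12 macrophage genes summed to 388 and 397 CPM against 337 and 2185 CPM, led by CTSS, with 0.805 and 2.23 CPM of CD163. The macrophage and germ sums were higher in endothelial than in other cells in pig 2 and lower in pig 3. The 12 lymphocyte genes summed to 16.5 and 34.2 CPM against 66.3 and 305 CPM, led by CCL5 and PTPRC, and the 6 erythroid genes with a symbol to 5.63 and 339.8 CPM against 14.6 and 435 CPM, nearly all HBB. The 7 platelet genes with a symbol summed to 690.2 and 871 CPM against 89.3 and 75.1 CPM, of which VWF, a gene of the rule, was 531 and 703 CPM in the endothelial cells, and SELP is also shared with endothelium. In the test that follows no pericyte, stromal, Sertoli or erythroid gene passed in either direction, with or without pig 1. With the animal as a block, WT1 of the Sertoli list and RGS5 and MYL9 of the pericyte list were higher, and SOX9, DHH, INHBB and GATA4 (Sertoli), CNN1 (pericyte), FBLN1 (stromal) and HBM (erythroid) lower. In the same block the lower genes numbered 6 of 9 on the macrophage, 7 of 10 on the lymphocyte and 2 of 3 on the Leydig list, beside 18.5% lower over all genes. Without the block, KIT, MRC1 (a scavenger receptor shared by macrophages and some endothelia), SELP and GP9 were higher, and UCHL1, ELAVL2, SALL4, SYCP3, INSL3, CCL5 and CD2 lower. Without pig 1 KIT, MRC1 and SELP were higher and UCHL1 and INSL3 lower, while the other 6 did not pass. At least 2 of the stromal and myoid genes that choose the second comparison had a UMI in 84 and 62 endothelial cells of pigs 2 and 3.

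To find what sets endothelial cells apart in their own testis, UMIs were summed for each pig over endothelial cells and over the other called cells. The 22 genes of the rule were left out, and 15156 genes were tested. With 3 pigs 1103 genes (7.28%) were higher and 992 (6.55%) lower in endothelial cells at an adjusted p under 0.05. Without pig 1 508 genes (3.40%) were higher and 43 (0.288%) lower, and 490 of the higher and 42 of the lower genes were called both ways. With the animal as a block, since both sums of a pig come from the same library, 1800 genes (11.9%) were higher and 2801 (18.5%) lower. Calls of single genes below come from the fit without the block unless the block is named. Some genes that did not pass there passed with it, so not passing does not mean no difference. Scaling by relative log expression in place of TMM gave 961 higher and 1724 lower genes, and DESeq2 in place of edgeR gave 433 and 175. The median log2 difference of all genes was −0.32, and −0.25 without pig 1, −0.59 with that other scaling and −0.48 with library size alone. Differences are on the log2 scale, endothelial over other cells, with their standard error (SE), and adjusted p-values come from the quasi-likelihood test of edgeR, adjusted by Benjamini and Hochberg's method over all genes tested. Levels are given for pig 2 and then pig 3, in endothelial against other cells.

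Among genes with a symbol, a mean of at least 100 CPM over the 3 endothelial sums and a higher level in 3 of 3 pigs, the largest difference was that of CA4 (ENSSSCG00000023186, chr12:37962951-37972443, minus strand of Sscrofa11.1), carbonic anhydrase IV of the capillary surface. It stood at 335 and 414 CPM against 3.64 and 1.14 CPM, with 1 UMI in the endothelial cells of pig 1. The difference was 7.49 ± 0.81 (adjusted p = 1.81e-05), and 7.54 without pig 1 (adjusted p = 0.00926). APLNR (ENSSSCG00000038869), the apelin receptor, stood at 374 and 585 CPM against 3.70 and 3.53 CPM, a difference of 7.35 ± 0.85 (adjusted p = 3.26e-05). CLEC3B (ENSSSCG00000011299, chr13:28219241-28229113, plus strand), the plasminogen-binding lectin tetranectin, stood at 1615 and 1437 CPM against 18.4 and 7.06 CPM, with 8 UMIs in pig 1. Its difference was 7.11 ± 0.99 (adjusted p = 1.60e-04). All 3 genes were higher in endothelial than in other cells in every pig, as the ranking required, with no overlap between the sums. In pig 1 this rests on 1 UMI each of CA4 and APLNR. GPIHBP1, which carries lipoprotein lipase to the capillary lumen, differed by 7.04 ± 0.62, and CAVIN2, a coat protein of caveolae, by 6.75 ± 0.81.

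The same ranking then gave CCM2L (6.43), ROBO4 (6.40), CD93 (6.39), TM4SF1 (6.33), PDE2A (6.18), CD34 (5.54), CCL21 (5.32), ENG (5.31), RHOJ (5.29) and IYD (5.27), with the log2 difference in parentheses. ROBO4 and CD93 are membrane receptors of endothelium, CD34 is a sialomucin of capillaries, ENG is a co-receptor for BMP9 and RHOJ a small GTPase. Of these 15 genes 14 passed without pig 1 as well. The condition on 3 pigs left out genes with 0 UMIs in the 3 cells of pig 1. CCM2L (48.7 and 58.4 CPM), PDE2A (93.8 and 103 CPM) and IYD, a deiodinase known from the thyroid (8.05 and 10.8 CPM), reached the mean asked for only through 1 UMI in pig 1. IYD did not pass without that pig (adjusted p = 0.0976). Ranking over pigs 2 and 3 alone, a choice made after the data were seen, added LRG1, DYSF, PCDH12, CHP2, MYCT1, CD300LG, ESAM and CLEC14A, all with 0 UMIs in the endothelial cells of pig 1. Over 3 pigs these differed by 7.54 (LRG1), 6.94 (DYSF), 6.84 (PCDH12), 6.60 (CHP2), 6.84 (MYCT1), 6.59 (CD300LG), 6.51 (ESAM) and 6.41 (CLEC14A), all more than PDE2A and LRG1 more than CA4. LRG1, a secreted glycoprotein, stood at 126 and 161 CPM against 1.35 and 0.627 CPM. CD300LG, a ligand for L-selectin, stood at 429 and 322 CPM against 6.93 and 2.05 CPM, and DYSF, a protein of membrane repair, at 248 and 297 CPM against 2.88 and 2.68 CPM.

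**Figure D2:**
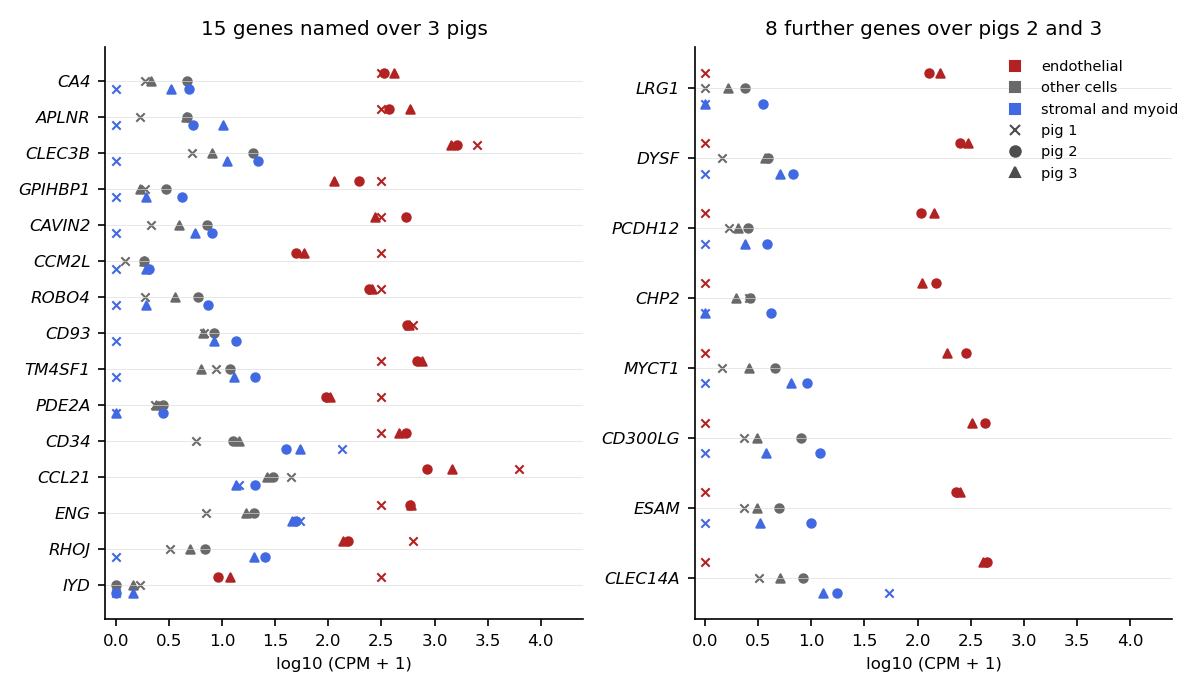
Levels of the 15 genes with the largest difference among those higher in 3 of 3 pigs (left) and of 8 further genes ranked over pigs 2 and 3 (right), as log10 of CPM + 1, in endothelial (red), other (grey) and stromal and myoid cells (blue), with a marker shape for each pig. In pigs 2 and 3 every gene shown is higher in the endothelial sum than in the other sums, while pig 1 shows steps of 1 UMI (311 CPM) and 0 for the genes on the right.

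To show the regulatory sequence of genes that were high together, the 250 bases upstream of the annotated start were read from Sscrofa11.1 for 19240 RefSeq genes. They were searched on both strands for GGAAGT, a core that ETS factors such as ERG and FLI1 can bind. Of the 25 genes of the pan-endothelial list described next, 4 (16%) held it. These were ENG (chr1:268309379-268343861, minus strand, upstream stretch chr1:268343862-268344111), ICAM2 (chr12:14986636-14991639, plus strand, chr12:14986386-14986635), MMRN2 (chr14:87891585-87916327, minus strand, chr14:87916328-87916577) and MYCT1 (chr1:13651397-13667210, minus strand, chr1:13667211-13667460). They are credited to RefSeq and given 5′ to 3′ on the strand of the gene, with the match in capitals, which reads ACTTCC where it lies on the opposite strand.
ENG: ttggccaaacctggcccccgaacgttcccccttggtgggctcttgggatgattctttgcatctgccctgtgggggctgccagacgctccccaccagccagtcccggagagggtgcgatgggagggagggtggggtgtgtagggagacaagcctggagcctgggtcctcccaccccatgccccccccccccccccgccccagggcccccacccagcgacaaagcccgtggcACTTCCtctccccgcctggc
ICAM2: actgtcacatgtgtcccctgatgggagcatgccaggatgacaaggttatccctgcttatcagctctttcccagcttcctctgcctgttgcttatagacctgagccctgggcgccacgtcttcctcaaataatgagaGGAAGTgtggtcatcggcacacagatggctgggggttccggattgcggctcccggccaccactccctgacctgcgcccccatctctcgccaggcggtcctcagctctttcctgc
MMRN2: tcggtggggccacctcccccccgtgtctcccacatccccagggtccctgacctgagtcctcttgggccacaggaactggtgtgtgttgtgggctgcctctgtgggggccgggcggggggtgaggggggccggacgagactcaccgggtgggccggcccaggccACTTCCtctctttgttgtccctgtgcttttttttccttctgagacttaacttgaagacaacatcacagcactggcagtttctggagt
MYCT1: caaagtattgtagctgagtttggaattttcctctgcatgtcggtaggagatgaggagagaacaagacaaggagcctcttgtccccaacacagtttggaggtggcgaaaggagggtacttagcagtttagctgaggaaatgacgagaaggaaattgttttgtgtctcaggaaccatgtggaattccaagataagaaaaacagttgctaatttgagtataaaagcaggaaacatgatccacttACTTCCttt
The match lies close to the start in ENG and MYCT1 and further upstream in ICAM2 and MMRN2. The share holding GGAAGT was 17.4% of all genes read, 18.3% of the 11857 tested genes with a sequence and 17.0% of the 429 matched among the 490 genes higher with and without pig 1. For AGATAA, the core read by GATA factors, also on both strands, the shares were 8.05%, 6.72% and 6.29%, and for ACAATG, the core read by SOX factors, 7.29%, 5.96% and 4.90%. Of the 25 pan-endothelial genes, 3 (12%) held AGATAA and 3 (12%) held ACAATG. A match is a description of these letters and not of binding.

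Of 21 tested pan-endothelial genes outside the rule, 20 were higher and none lower, and the list's median difference was 5.19 against −0.32 over all genes. Without pig 1 18 were higher. CAV1, the coat protein of caveolae, stood at 1233 and 1281 CPM against 53.7 and 37.0 CPM, a difference of 5.05 ± 1.11 (adjusted p = 0.00645). ENG stood at 584 and 602 CPM against 18.7 and 15.9 CPM. ESAM, an adhesion molecule of endothelial junctions, stood at 227 and 249 CPM against 3.94 and 2.11 CPM. Each of these lay more than 10 times above the other cells in pigs 2 and 3, while CAV1 and ESAM had 0 UMIs in the endothelial cells of pig 1. EMCN, an anti-adhesive sialomucin, had 506 and 328 CPM against 29.2 and 3.59 CPM and passed with 3 pigs but not without pig 1 (adjusted p = 0.0760), and so did ICAM2 (adjusted p = 0.112). PLVAP, the diaphragm protein of fenestrated vessels, was the member that did not pass, with 13.3 and 21.9 CPM against 9.99 and 15.8 CPM.

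Among endothelial transcription factors 13 of 14 tested were higher and none lower (median 4.27), and 12 were higher without pig 1. Of the ETS family, ETS1 stood at 427 and 417 CPM against 10.7 and 21.2 CPM (4.94 ± 0.69, adjusted p = 1.79e-04) and FLI1 at 390.4 and 288 CPM against 13.9 and 17.7 CPM. ERG, which keeps endothelial identity, stood at 259 and 215 CPM against 9.11 and 20.1 CPM. KLF2, a factor induced by flow, stood at 450.0 and 547 CPM against 28.9 and 25.6 CPM, and its groups did not overlap. TCF4 and MEF2C were higher but also present in other cells, at 141 and 80.6 CPM and at 70.0 and 66.8 CPM. SOX18, which acts in vessel and lymphatic growth, had 44.7 and 77.0 CPM against 0.940 and 0.968 CPM, and GATA2 62.8 and 40.5 CPM against 0.764 and 0.399 CPM. TAL1, LMO2 and LYL1 were at 0 in every endothelial sum, SOX17 had 2 UMIs in all, and HEY1 did not pass.

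Genes of arteries, capillaries and veins were all represented. Of 12 tested capillary genes 9 were higher and none lower (median 3.28), 7 of them without pig 1. SPARC, a collagen-binding matrix protein, had 901 and 800.1 CPM against 589 and 112 CPM and did not pass. FABP4, a lipid carrier of many capillary beds, had under 1 CPM in both pigs. Of 16 arterial genes 10 were higher and 1, HEY2, lower (median 2.80), 7 and 0 without pig 1 and 11 and 2 with the block. Over all genes 7.28% were higher and 6.55% lower, 3.40% and 0.288% without pig 1 and 11.9% and 18.5% with the block. DLL4, the Notch ligand of arteries and sprouts, stood at 85.3 and 53.5 CPM against 1.53 and 0.342 CPM, and JAG1 at 149 and 142 CPM against 32.3 and 23.0 CPM. Of 9 venous genes 7 were higher and none lower (median 3.89), 5 without pig 1. SELP, the P-selectin of venules, stood at 78.9 and 107 CPM against 0.764 and 0.684 CPM. NR2F2, which represses arterial fate, stood at 168 and 193 CPM against 44.7 and 50.4 CPM.

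ACKR1, the chemokine receptor of venules, separated the pigs, with 0 UMIs in the 418 endothelial cells of pig 2 and 48.3 CPM in pig 3. In cells thinned to 2444 UMIs, at least 2 arterial genes had a UMI in 31.3% and 27.8% of the endothelial cells of pigs 2 and 3, against 5.82% and 4.12% of the other cells. At least 2 venous genes did in 30.6% and 50.7%, against 2.01% and 4.28%. At 696 UMIs the arterial shares were 8.37% and 4.48% and the venous shares 6.22% and 10.7%. The venous share was larger in pig 3 at both depths, while the arterial shares lay closer at 2444 than at 696 UMIs. Unthinned, and leaving out 11 and 19 cells with at least 2 lymphatic genes, 131 cells of pig 2 and 157 of pig 3 had both arterial and venous genes, against 91 and 34 with arterial and 112 and 95 with venous genes alone. The cells with both were deeper, with medians of 7622 and 8211 UMIs against 4194 and 4998 for arterial genes alone, and the part of depth in that class was not tested. GPIHBP1, which the grouping did not use, stood at 388 and 191 CPM in the cells with arterial genes alone and at 65.3 and 54.0 CPM in those with venous genes alone. PODXL, an anti-adhesive sialomucin not used either, stood at 356 and 498 CPM against 163 and 179 CPM. CXCL2, a neutrophil chemokine named after its values were seen, ran the other way, at 696 and 249 CPM against 1813 and 1565 CPM.

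Tip cell genes, expressed at the front of sprouts, were higher in 9 of 10 tested (median 3.48), 6 without pig 1. ANGPT2, the angiopoietin that loosens vessels, stood at 70.0 and 37.9 CPM against 5.05 and 3.70 CPM, and ESM1 at 25.8 and 37.9 CPM against 0.764 and 0.285 CPM. CXCR4, the receptor of CXCL12, had 160.2 and 55.8 CPM against 18.1 and 42.0 CPM and did not pass without pig 1 (adjusted p = 0.174). APLN, the ligand of APLNR, had 0 UMIs in the endothelial cells of all 3 pigs, and its level in other cells is not given here.

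**Figure D3:**
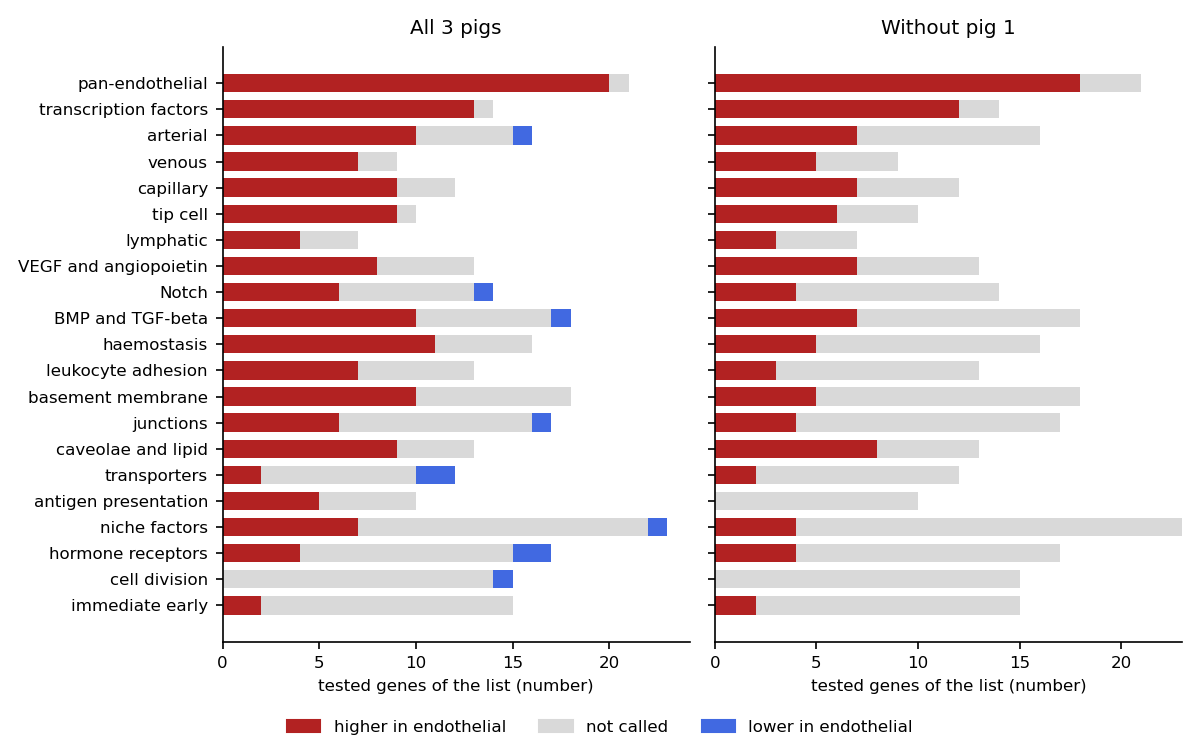
Number of tested genes of each list that were higher (red), lower (blue) or not called (grey) in endothelial against other cells, with all 3 pigs (left) and without pig 1 (right). Pan-endothelial genes and transcription factors are nearly all higher in both panels, while the cell division list has no higher member. Antigen presentation has none without pig 1, where its median log2 difference was 2.27 and 3.40% of all genes were higher.

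CCL21, the chemokine that draws CCR7-bearing leukocytes into lymph vessels, was concentrated in few cells. Its sums were 842 and 1457 CPM against 29.3 and 25.6 CPM, a difference of 5.32 ± 0.79 (adjusted p = 3.00e-04). Of 2091 CCL21 UMIs in the endothelial cells of pig 2, 2072 lay in 8 cells, and of 3920 in pig 3, 3884 lay in 13 cells. These 8 cells had 129 to 407 UMIs each and the 13 cells 100 to 653, whereas no other endothelial cell of pigs 2 and 3 had more than 2. They were 1.91% and 3.88% of the endothelial cells. A division at 10 UMIs was set after the data were seen. In pig 1, 1 of the 3 cells had 19 CCL21 UMIs among 850, with 2 UMIs of MMRN1. In cells thinned to 2444 UMIs, CCL21 had a UMI in 4.07% and 5.67% of the endothelial and 2.01% and 3.54% of the other cells. The endothelial shares include the CCL21-high cells.

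The CCL21-high cells carried other genes of the lymphatic list. MMRN1, a multimeric matrix protein of lymphatic and venous endothelium, had 32 of its 63 UMIs in pig 2 and 50 of its 89 in pig 3 there, in 8 of 8 and 12 of 13 cells. PROX1, the defining factor of lymphatic fate, was sparse, with 4 of its 15 UMIs in the 8 cells of pig 2 and 4 of its 11 in the 13 cells of pig 3. LYVE1, a hyaluronan receptor, stood at 78.3 and 84.7 CPM in them, against 3.62 and 4.09 CPM over all endothelial cells. In pig 2 this was 2 UMIs in 1 of the 8 cells, while 7 LYVE1 UMIs lay in the other endothelial cells. FLT4, the receptor for VEGFC, was at 0 in every endothelial sum, and its level in other cells is not given here. Genes of blood vessels differed among themselves in the same cells. VWF stood at 39.1 and 84.7 CPM there against 531 and 703 CPM over all endothelial cells, CD34 at 39.1 and 84.7 CPM against 535 and 461 CPM, and CD300LG and SELP were at 0. The 8 cells of pig 2 held 25553 UMIs in all and the 13 of pig 3 held 70859, so these low values rest on few UMIs. The arterial gap junction gene GJA4 stood at 822 and 127 CPM against 56.7 and 40.9 CPM and GPIHBP1 at 196 and 183 CPM against 195 and 112 CPM. The CCL21-high cells had fewer UMIs, with medians of 2757 and 4544 in pigs 2 and 3 against 4769 and 6260 over all endothelial cells, and each had to hold at least 3 UMIs of the genes of the rule, VWF among them. CLU, a Sertoli gene, stood at 4070.0 and 2456 CPM there and at 2894 and 403 CPM over all endothelial cells, and its part was not tested. These values describe 21 cells chosen by CCL21 and have no test. Of 7 tested lymphatic genes 4 were higher against other cells and none lower (median 2.65), namely CCL21, MMRN1, PROX1 and LYVE1. PROX1 did not pass without pig 1 (adjusted p = 0.109).

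**Figure D4:**
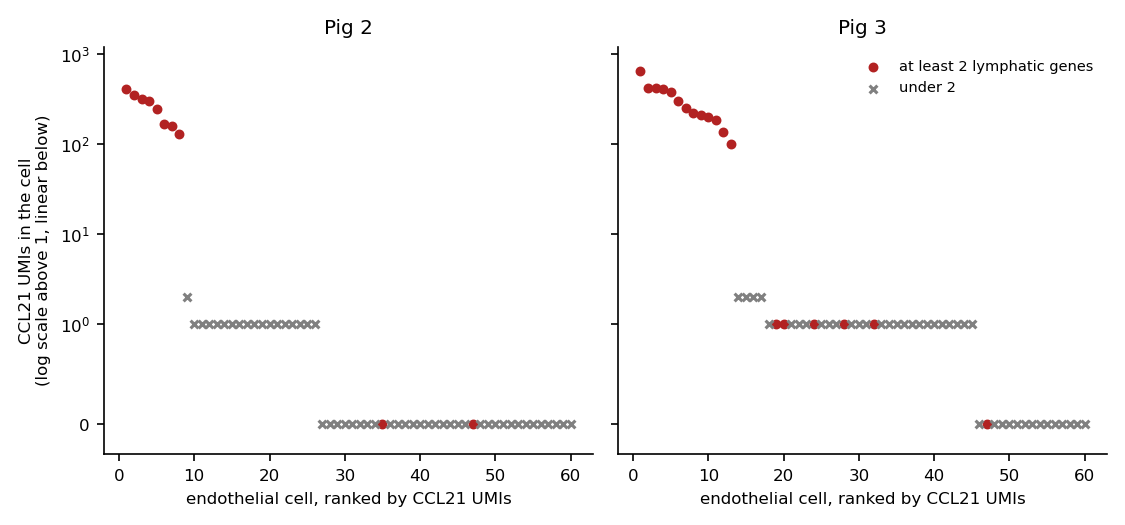
CCL21 UMIs in the 60 endothelial cells of pig 2 (left) and pig 3 (right) with most of them, ranked, on an axis that is logarithmic above 1 and linear below. Red circles are cells with a UMI of at least 2 lymphatic genes and grey crosses the rest. The leading 8 cells of pig 2 and 13 of pig 3 have at least 100 UMIs, and all later cells have 2 or fewer.

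In the fit without the block, the receptors FLT1, NRP1 and TEK were higher, FLT4 was at 0, and the VEGF ligands did not pass. Of 13 tested VEGF and angiopoietin genes 8 were higher and none lower (median 2.17), 7 without pig 1, and 8 higher and 1 lower with the block. The shares over all genes were 7.28% higher and 6.55% lower, and 11.9% and 18.5% with the block. Among the receptors, NRP1 stood at 245 and 196 CPM against 57.5 and 40.2 CPM. FLT1 stood at 107 and 133 CPM against 2.70 and 3.93 CPM (5.52 ± 0.57, adjusted p = 1.40e-05), and TEK, the angiopoietin receptor, at 96.6 and 83.7 CPM against 3.00 and 7.92 CPM. PTPRB, the phosphatase that restrains TEK, stood at 105 and 103 CPM against 2.94 and 6.49 CPM. These receptors were apart from other cells in both pigs. Of the ligands, VEGFA had 1.21 and 1.86 CPM against 10.3 and 3.82 CPM (adjusted p = 0.0808). VEGFB, VEGFC and VEGFD did not pass either. ANGPT2 and ANGPT1 were higher, the latter at 25.8 and 20.1 CPM against 5.70 and 10.5 CPM, but not without pig 1 (adjusted p = 0.129). ANGPTL4, a lipase inhibitor, stood at 143 and 61.0 CPM against 19.5 and 15.04 CPM.

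In the Notch list 6 of 14 tested genes were higher and 1 lower (median 1.85), 4 and 0 without pig 1 and 8 and 2 with the block. Beside this stand 7.28% higher and 6.55% lower over all genes, 3.40% and 0.288% without pig 1 and 11.9% and 18.5% with the block. NOTCH1 stood at 50.3 and 54.3 CPM against 9.11 and 8.60 CPM (2.95 ± 0.45, adjusted p = 3.69e-04). The ligands DLL4 and JAG1 and the modifiers LFNG and MFNG, which tune ligand choice, were also higher, and MFNG did not pass without pig 1 (adjusted p = 0.0709). The target HES1 had 321 and 340.2 CPM against 148 and 57.8 CPM and did not pass (adjusted p = 0.0568). HEY2, a target, had 3.62 and 0.744 CPM against 15.6 and 7.29 CPM and was lower (adjusted p = 0.0320), but not without pig 1 (adjusted p = 0.222).

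In the BMP and TGF-beta list 10 of 18 were higher and 1, SMAD9, lower (median 1.71), 7 and 0 without pig 1 and 10 and 2 with the block. The shares over all genes were 7.28% higher and 6.55% lower, 3.40% and 0.288% without pig 1 and 11.9% and 18.5% with the block. ID3, a target of BMP signals, stood at 716 and 1037 CPM against 57.1 and 26.8 CPM (4.43 ± 0.78, adjusted p = 0.00122). ID1 stood at 306 and 338 CPM against 25.0 and 34.9 CPM, and the receptors TGFBR2 and TGFBR3 at 360.2 and 290.4 CPM and at 271 and 283 CPM in endothelial cells. ACVRL1, the receptor of BMP9, had 23.7 and 20.1 CPM against 5.94 and 5.98 CPM and was higher. GDF2, which encodes BMP9, was at 0 in every endothelial sum.

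Genes of haemostasis and vessel tone were higher in 11 of 16 tested and lower in none (median 2.78), 5 without pig 1, and 12 higher and 1 lower with the block. ACE, which makes angiotensin II, stood at 210.1 and 231 CPM against 8.40 and 6.15 CPM (5.25 ± 0.67, adjusted p = 7.74e-05). PTGIS, the prostacyclin synthase, stood at 215 and 209 CPM against 61.2 and 16.8 CPM and did not pass without pig 1 (adjusted p = 0.0951). EDN1 and NOS3, sources of endothelin and nitric oxide, stood at 53.1 and 23.4 CPM and at 28.2 and 30.1 CPM, and neither passed without pig 1 (adjusted p = 0.0886 and 0.0677). PROCR, the protein C receptor, had 17.3 and 17.5 CPM against 0.294 and 0.627 CPM and passed both ways. For leukocyte adhesion 7 of 13 were higher and none lower (median 2.41), 3 without pig 1, namely CD34, CXCL12 and SELP. With the block 9 were higher and 1 lower. For both lists the shares over all genes were 7.28% higher and 6.55% lower, 3.40% and 0.288% without pig 1 and 11.9% and 18.5% with the block. ICAM1 had 87.7 and 126 CPM against 4.53 and 19.0 CPM. VCAM1, which is induced by inflammation, had 5.63 and 24.5 CPM against 5.17 and 14.6 CPM and did not pass.

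Basement membrane genes were higher in 10 of 18 (median 2.15), 5 without pig 1. COL15A1, of the collagen that ties capillaries to the interstitium, stood at 1408 and 1109 CPM against 191 and 92.2 CPM (3.54 ± 0.93, adjusted p = 0.0189). IGFBP7 stood at 1110.0 and 1003 CPM against 181 and 175 CPM, and the laminin chain LAMC1 at 138 and 134 CPM against 36.3 and 32.6 CPM. COL4A2 had 309 and 502 CPM against 126 and 105 CPM and did not pass (adjusted p = 0.0638). Among junction genes 6 of 17 were higher and 1 lower (median 1.43), 4 and 0 without pig 1 and 10 and 2 with the block. Over all genes 7.28% were higher and 6.55% lower, 3.40% and 0.288% without pig 1 and 11.9% and 18.5% with the block. The lower junction genes thus stayed near or under the share over all genes. The lower gene was CDH2, N-cadherin, at 19.3 and 7.44 CPM against 96.3 and 42.4 CPM. CTNNB1, which most cells use, had 414 and 330.2 CPM against 149.6 and 91.9 CPM and did not pass.

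Of the caveolae and lipid genes 9 of 13 were higher and none lower (median 2.17), 8 without pig 1, and 10 higher and 1 lower with the block. CAVIN1 stood at 629 and 522 CPM against 73.9 and 31.4 CPM and CAV2 at 313 and 273 CPM against 20.3 and 10.4 CPM. SCARB1, the receptor for high-density lipoprotein, stood at 271 and 136 CPM against 34.7 and 26.8 CPM. LPL itself, the lipase that GPIHBP1 carries, had 6.84 and 0 CPM against 23.8 and 1.14 CPM and did not pass. For transporters the counts were 2 of 12 higher and 2 lower (median −0.06), beside 7.28% and 6.55% over all genes. With the block they were 4 and 3, beside 11.9% and 18.5% over all genes. ABCG2, the efflux pump of barrier endothelium, stood at 652 and 315 CPM against 31.8 and 25.8 CPM (4.16 ± 0.65, adjusted p = 4.87e-04), and SLCO2A1, the prostaglandin transporter, at 85.3 and 178 CPM against 3.41 and 2.11 CPM. MFSD2A, the lipid carrier of the brain barrier, was lower, with 0.402 and 0.744 CPM against 7.05 and 2.56 CPM, and SLC7A5, a large amino acid carrier, had 9.26 and 4.09 CPM against 31.5 and 25.9 CPM. Neither of these passed without pig 1 (adjusted p = 0.184 and 0.110).

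Antigen presentation genes were higher in 5 of 10 tested (median 2.09), in 0 without pig 1 and in 6 with the block. The median without pig 1 was 2.27, so the calls were lost but the difference was about as large. Without pig 1, 3.40% of all genes were higher. B2M, the light chain of class I molecules, stood at 8088 and 12017 CPM against 687 and 2957 CPM and did not pass (adjusted p = 0.131). CD74, the class II chaperone, had 1890.0 and 3019.7 CPM against 474 and 1784 CPM. Both genes had higher values in endothelial cells in each pig, and higher values in pig 3 than in pig 2 in either cell group. The 5 called genes were CIITA, TAP1, TAPBP, PSMB8 and PSMB9, which act in class II control, peptide transport and the immunoproteasome.

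ISG15, IFI6, BST2 and MX2, known as genes that interferon induces and named after their values were seen, had higher values in pig 3 than in pig 2 within endothelial cells. ISG15, a ubiquitin-like modifier, stood at 234 and 5984 CPM in pigs 2 and 3. IFI6 stood at 2118 and 10097 CPM, and BST2, which tethers virions, at 261 and 1438 CPM. MX2 stood at 39.0 and 433 CPM. ISG15 was also compared outside endothelium. In the Sertoli class, with a UMI of at least 2 Sertoli genes (201 and 10 cells), ISG15 had 17.2 and 2866 CPM. In stromal and myoid cells it had 29.5 and 1142 CPM, and in the Leydig class 18.0 and 842 CPM. In the macrophage class the values were closer, with ISG15 at 732 and 1227 CPM, IFI6 at 2383 and 2502 CPM and MX2 at 145 and 133 CPM. In pig 3 these genes stood higher in endothelial cells than in any other class measured. With 1 animal on each side no test was possible, and library and animal cannot be told apart.

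**Figure D5:**
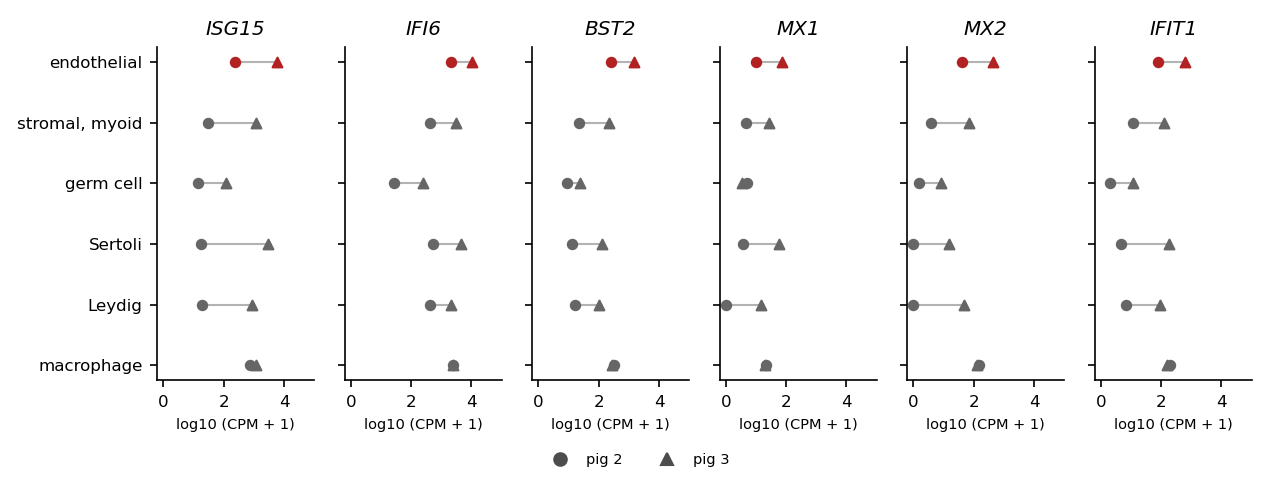
Levels of ISG15, IFI6, BST2, MX1, MX2 and IFIT1, named after their values were seen, by cell class in pig 2 (circles) and pig 3 (triangles), as log10 of CPM + 1, with endothelial cells in red. ISG15 stands at 234 and 5984 CPM in endothelial cells and is also higher in pig 3 in the stromal, Sertoli and Leydig classes, while the macrophage class stands at 732 and 1227 CPM.

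Of 23 tested secreted factors that may reach neighbouring cells 7 were higher and 1, WNT5A, lower (median 0.26). Without pig 1 these were 4 and 0 with a median of −0.12, and with the block 9 and 5 with a median of −0.09. Over all genes 7.28% were higher and 6.55% lower, and 11.9% and 18.5% with the block. Against stromal and myoid cells 6 were higher and 7 lower (median −0.97), beside 8.98% and 8.62% over all genes. There, 5 were higher and 3 lower without pig 1 (median −0.77), and 6 and 10 with the block (median −0.72). CXCL12, a chemokine that retains stem cells, stood at 295 and 224 CPM against 50.7 and 41.4 CPM (2.41 ± 0.53, adjusted p = 0.00645). PDGFB, which recruits pericytes, stood at 85.7 and 74.0 CPM against 2.59 and 5.41 CPM (4.58 ± 0.50, adjusted p = 1.94e-05), and IGFBP5 at 340.1 and 112 CPM against 14.6 and 15.8 CPM. KITLG, the stem cell factor, had 78.5 and 56.1 CPM against 30.3 and 10.6 CPM and did not pass without pig 1 (adjusted p = 0.134). GDNF, the factor for spermatogonial stem cells, had 0.402 and 0.372 CPM against 1.06 and 0.797 CPM and did not pass, and each endothelial value rests on 1 UMI. FGF2 had 3.22 and 0.372 CPM against 3.82 and 2.28 CPM and did not pass.

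Receptors gave 4 of 17 higher and 2 lower (median 0.35), 4 and 0 without pig 1 and 7 and 2 with the block. The shares over all genes were 7.28% higher and 6.55% lower, and 11.9% and 18.5% with the block. The higher ones were RAMP2 and CALCRL, which together form an adrenomedullin receptor, KIT and IGF1R. RAMP2 stood at 516 and 566 CPM against 26.2 and 22.3 CPM, CALCRL at 265 and 257 CPM against 9.58 and 13.8 CPM, and KIT at 283 and 129.8 CPM against 13.3 and 28.8 CPM. FGFR3, a fibroblast growth factor receptor, had 1.61 and 1.49 CPM against 4.35 and 9.51 CPM and was lower (−1.97 ± 0.62, adjusted p = 0.0436), but not without pig 1 (adjusted p = 0.218). ESR1 and ESR2 had under 1 CPM in every endothelial sum. WT1, on the Sertoli list, had 157 and 181 CPM against 102 and 20.7 CPM (adjusted p = 0.0813), while INHA and SOX9 of the same list stood at 322 and 56.9 CPM against 1569 and 226 CPM and at 52.7 and 5.58 CPM against 284 and 36.2 CPM.

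Of 15 tested genes of dividing cells none was higher and 1, TPX2, was lower (median −0.91), beside 6.55% lower over all genes. Without pig 1 none passed (TPX2, adjusted p = 0.191), and with the block 3 were lower, beside 18.5% lower over all genes. At 696 UMIs a cell, 0 of 3, 16 of 418 and 16 of 335 endothelial cells of pigs 1, 2 and 3 had a UMI of at least 2 of them. These were 3.83% and 4.78% in pigs 2 and 3, against 5.08% and 17.4% of the other cells. The mean over 3 pigs was 2.87% ± 2.53 (SD, n = 3), in which pig 1 counts as 0% from 3 cells (exact 95% interval 0% to 70.8%), and without pig 1 it was 4.30%. Unthinned shares were 20.8% and 34.6% against 23.7% and 56.6%. The exact intervals of the thinned shares were 2.20% to 6.14% and 4.37% to 5.86% in pig 2, and 2.75% to 7.64% and 15.7% to 19.1% in pig 3. They cover counting error over the cells of each library only, and the difference in these shares was not tested. Of the immediate early genes 2 of 15, KLF2 and MYC, were higher (median 1.46), beside 7.28% over all genes. Without pig 1 these were KLF2 and ZFP36 (median 1.69), beside 3.40% over all genes. With the block 6 were higher, beside 11.9% over all genes. FOS had 4923 and 3373 CPM against 2445 and 609 CPM and did not pass.

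The genes with the largest falls among those with at least 100 CPM in other cells included germ and Leydig genes. INSL3, the peptide hormone of Leydig cells, stood at 128 and 191 CPM against 785 and 1014 CPM, and at 1 UMI in the endothelial cells of pig 1 against 6379 CPM in its other cells. The difference was −4.07 ± 1.06 (adjusted p = 0.0184), and −2.26 without pig 1. UCHL1, a deubiquitinase of spermatogonia, stood at 8.45 and 17.8 CPM against 142 and 273 CPM (−3.93 ± 0.65, adjusted p = 7.39e-04). CRABP1, a carrier of retinoic acid, stood at 46.7 and 51.7 CPM against 346 and 719.8 CPM. RDH16, a retinol dehydrogenase, and PAGE2B ranked among them as well, but did not pass without pig 1 (adjusted p = 0.109 and 0.136). Such falls depend on which cells make up the rest of each library.

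A second comparison used stromal and myoid cells of the same libraries. These were 77, 627 and 300 cells of pigs 1, 2 and 3 with at least 3 UMIs over at least 2 of PDGFRA, TCF21, LUM, DCN, ACTA2 and MYH11, and MYH11 had no symbol in the pig table used here. They also had a UMI of at most 1 endothelial gene of the rule and were free of its drop conditions. The genes of both choices were left out of the fit. Of 12656 genes 1136 (8.98%) were higher and 1091 (8.62%) lower in endothelial cells. Without pig 1 688 (5.44%) were higher and 262 (2.07%) lower, and with the block 1968 (15.5%) and 2182 (17.2%). Scaling by relative log expression gave 886 and 1777, library size alone 852 and 1515, and DESeq2 223 and 108. The endothelial sums are the same as before, so the comparisons share samples. Pan-endothelial genes were higher in 20 of 21, transcription factors in 13 of 14 and caveolae and lipid genes in 9 of 12 tested, and all 6 tested stromal genes were lower. Since endothelial and stromal genes chose the 2 groups, these directions were largely set by the choice and are a description. Without pig 1 these counts were 19, 12, 9 and 6. COL1A1 stood at 171 and 220.1 CPM against 1611 and 2895 CPM in stromal and myoid cells (adjusted p = 0.00133).

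Several genes that were higher against all other cells stood closer to the stromal and myoid level. COL15A1 had 1408 and 1109 CPM against 908 and 501 CPM (1.06 ± 0.62, adjusted p = 0.273), and IGFBP7 1110.0 and 1003 CPM against 771 and 907 CPM. NR2F2 had 168 and 193 CPM against 199.6 and 269 CPM. CXCL12 stood at 295 and 224 CPM against 249.6 and 245 CPM and NRP1 at 245 and 196 CPM against 189 and 116 CPM, and none of these 5 passed. Basement membrane genes were higher in 5 of 17 here, in 2 without pig 1 and in 7 with the block. CA4 stood at 335 and 414 CPM against 3.91 and 2.29 CPM (7.06 ± 0.70, adjusted p = 8.93e-09), and SELP at 78.9 and 107 CPM against 0.710 and 1.37 CPM. Cell division genes were lower in 6 of 15 against stromal and myoid cells, in none without pig 1 and in 11 with the block. Their median differences were −1.21, −1.27 and −1.11, so the size changed little.

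In cattle the same rule found 0, 6 and 11 endothelial cells among 3550, 8751 and 6208 called cells, or 0% (exact upper bound 0.104%), 0.0686% and 0.177%. Of the 6 and 11 cells, 5 and 9 had exactly 2 endothelial genes of the rule, and 3 and 3 had a UMI of at least 2 stromal and myoid genes. CDH5 and EGFL7 had no symbol in the cattle gene table, so the rule read 4 genes there, and with the same 4 genes pigs 1, 2 and 3 gave 0, 329 and 295 cells. CCL21 had 70 and 436 UMIs in the 6 and 11 endothelial cells of cattle 2 and 3, or 2633 and 7371 CPM, against 121 and 45.8 CPM in other cells. Over 12735 shared symbols, the difference between endothelial and other cells itself differed between species for 7 genes in each direction (0.0550% each), over 11 sums, since cattle 1 had no endothelial cell and was left without that sum. The median of this difference over all genes was 1.74 on the log2 scale, but −0.59 with DESeq2, 4.70 without cattle 3, 2.62 without cattle 2 and 5.04 with at least 5 UMIs over 3 genes. With the block there were 36 (0.283%) higher and 35 (0.275%) lower in pig, and with DESeq2 17 and 95. With cells chosen by the same 4 endothelial genes in both species, a choice made after the data were seen, 271 were higher and 10 lower. CLEC3B, named after its values were seen, was among the 7 higher in pig, and in cattle it stood at 1843 and 2925 CPM in endothelial and at 1162 and 847 CPM in other cells. Without the block RAMP3 and CDH13, both lower in pig, were the list genes that passed. Neither passed with at least 5 UMIs over 3 genes, where 0, 1 and 2 cells of cattle 1, 2 and 3 were left. Without cattle 3 only cattle 2 has an endothelial sum, so that fit cannot decide. Of the 10 list genes followed, EPAS1, lower in pig, and SPARCL1, THBD and FABP5, higher in pig, also passed with the block. Their adjusted p-values in that edgeR fit were 1.73e-06, 2.69e-04, 0.00687 and 0.0491.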

How the data were processed

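Raw UMI counts were analysed as deposited. Per the labels and methods, the authors made 1 droplet library for each of 3 pigs and 3 cattle, processed the reads with Cell Ranger 2.1.0 and aligned them to Sscrofa11.1 and ARS-UCD1.2. The matrix headers of the pig files name version 3.0.2. The deposited pig count files held only barcodes with at least 500 UMIs, and the annotation release is not given in the sources used here.

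The minimum of each library was the 99th percentile of its 3000 largest barcode totals divided by 10. No doublet caller was run, and only the genes of other cell types removed barcodes. Members, gene lists and tests were chosen with earlier results of these data known. Cells are not replicates, so UMIs were summed for each animal and cell group. Sums were tested with edgeR 4.0.16 (quasi-likelihood, TMM, R 4.3.3) with at least 10 counts over the sums asked for by its expression filter, at an adjusted p under 0.05. Each library was counted as 1 animal. The TMM factor of pig 1's endothelial sum was 4.10. Both sums of a pig come from the same library, and their deviations from the group means correlated at 0.122, 0.334 and 0.185 over 1900 genes, so counts with the animal as a block are given for all genes and for the lists where they differed most from the counts without it.

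Named genes were the 15 with the largest rises among called genes with a symbol, a mean of at least 100 CPM over the endothelial sums and a higher level in 3 of 3 pigs, the 5 with the largest falls among called genes with at least 100 CPM over the other sums, and up to 4 members of each list, while other members named were chosen after their values were seen. Alternatives were relative log expression factors, library size alone, DESeq2 1.42.0, no filter, the block, leaving out each animal, and other cell rules. Upstream sequence was read with RefSeq annotation. The scripts were tested on simulated data. Total counts per library limit precision, and counting intervals leave out variation between animals. Some members of the gene lists are counted but not reported here by name.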

Additional observations from a re-analysis of the deposited data

Results flagged for a closer look

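The difference between endothelial and other cells itself differed between species for RAMP3 and CDH13, by the interaction term of edgeR's quasi-likelihood test over 12735 genes. RAMP3, a partner of the calcitonin receptor family, differed by −6.06 (log2, pig minus cattle, SE 0.877, adjusted p = 0.00849). It stood at 188 and 101 CPM in the endothelial cells of cattle 2 and 3, against 2.23 and 1.14 CPM in other cells, while pigs 2 and 3 had 2.41 and 3.35 CPM against 3.06 and 4.10 CPM. CDH13, T-cadherin, differed by −5.19 (SE 0.871, adjusted p = 0.0137). It stood at 113 and 186 CPM against 2.72 and 3.40 CPM in cattle, and at 13.7 and 5.21 CPM against 7.05 and 7.12 CPM in pigs. The cattle values rest on 5 and 6 UMIs of RAMP3 and on 3 and 11 UMIs of CDH13, in 6 and 11 cells. By the same test neither gene passed with at least 5 UMIs over 3 genes, where 0, 1 and 2 cells of cattle 1, 2 and 3 were left. Without cattle 3 only cattle 2 has an endothelial sum, so that fit cannot decide. RAMP3 did not pass when barcodes with 2 stromal genes were also dropped, nor CDH13 without pig 1 or without pig 3.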

How the results depend on the processing

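None of the 95 named genes tested against other cells, nor of the 10 tested between species, changed sign while called. Against other cells, DESeq2 gave 433 higher and 175 lower genes and the replicate block 1800 and 2801. Lower genes numbered 1724 with relative log expression factors, 1816 without a filter and 520 with at least 5 UMIs over 3 genes. Leaving out 1 pig gave 508 to 999 higher and 43 to 824 lower genes, with both lowest counts without pig 1. Against stromal and myoid cells, DESeq2 gave 223 and 108 and the replicate block 1968 and 2182. Lower genes numbered 1777 with relative log expression factors and 717 with at least 5 UMIs over 3 genes. Leaving out 1 pig gave 592 to 688 higher genes (688, 592 and 638 without pigs 1, 2 and 3) and 262 to 710 lower genes (262, 710 and 657). Between species, higher genes numbered 4 with library size alone, 17 with DESeq2, 36 with the replicate block, 4 after dropping barcodes with 2 stromal genes and, in a choice made after the data were seen, 271 with the same 4 endothelial genes. Leaving out 1 animal gave 0 to 70 higher genes, with 70 without pig 1, 2 without pig 3, 1 without cattle 2 and 0 without cattle 3 (edgeR, 288 at an unadjusted p under 0.05). Lower genes between species numbered 95 with DESeq2, 35 with the replicate block and 0 with at least 5 UMIs over 3 genes (edgeR, 1217 at an unadjusted p under 0.05 in either direction), and leaving out 1 animal gave 1 to 8, with 3 without pig 1 and 1 without cattle 3. The causes were not tested. The mean share of endothelial cells with genes of dividing cells was 18.5% unthinned and, in a choice made after the data were seen, 12.01% at the minimum of pig 2 over pigs 2 and 3.

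Over 95 named genes and 13 alternatives, 1141 values kept their direction and side of the threshold, 56 lost the call, 36 gained it and 2 moved. With 3 cells in pig 1, the 3-pig calls rest on a sum where 1 UMI is 311 CPM. The pigs' libraries differed in depth, and 2 pigs supply nearly all endothelial UMIs.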
